A study of Mus musculus with 4 samples.

Results

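The genes described here encode 6 transcription factors of the MAF and MEF2 families: Maf, Mafg and Mafk, and Mef2a, Mef2c and Mef2d. They were chosen by name, and every deposited ATAC-seq peak that overlapped a gene body or the 50 kb on either side of it was taken (GRCm38 genome, GENCODE annotation). Of 676057 deposited peaks in the 4 libraries, 715 lay in these windows, 172 to 188 in each library. ATAC-seq marks open chromatin, because the Tn5 transposase inserts sequencing adapters where DNA is accessible. The cells were microglia, the resident macrophages of the brain, sorted by flow cytometry from untreated C57BL/6 mice aged 3 months. The groups were WT, with 2 libraries, and IRF8KO, with 2 libraries, and IRF8 is a myeloid transcription factor of the interferon regulatory family. The labels name neither the targeted allele nor the cells in which it was removed. Nothing states that the replicates came from separate animals, so p-values measure the spread between these libraries, which may be technical.

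MAF proteins are basic leucine zipper factors that bind as dimers to elements built around the letters TGCTGA. Maf encodes a large MAF protein with its own activation domain, known in macrophages for restraining self-renewal, whereas Mafg and Mafk encode small MAF proteins that lack such a domain and pair with factors such as the products of Nfe2l2 and Bach1. MEF2 proteins are MADS-box factors that bind A/T-rich elements, are held down by class IIa histone deacetylases and are activated by kinases such as the product of Mapk14. In microglia, Mef2c is known for limiting inflammatory responses.

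A peak was called strict when the authors' −log10 q was 2 or more, and overlapping strict peaks from any library were joined, which gave 155546 regions, of which 185 lay in the windows. A further 112 merged intervals in the windows held weaker peaks alone, none above 0.554 on the scale defined next, and were not used. Each region was given, per library, the highest summit pileup (the depth of extended cut sites) of any deposited peak in it, scaled to 1000000 tags of that library (pileup per 1000000 tags, abbreviated PPM). A summit pileup is the depth at 1 base, so levels of regions of different length can be set side by side. Regions with a strict peak in each WT library and no deposited peak of any strength in IRF8KO were called WT-specific, and the converse IRF8KO-specific. The windows held 11 WT-specific regions, 5.95% of 185, where 5.58% of all regions of the genome were WT-specific. They held 9 IRF8KO-specific regions, or 4.86%, where 3.86% of all regions were IRF8KO-specific. Both shares were near these background values.

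The sequences of 10 of these 20 regions are shown, 8 for a motif near their summit and a pair in Mef2c for their position. The ETS-IRF composite element, at which IRF8 binds DNA together with the ETS factor PU.1, consists of GGAA, any 2 bases and GAAA. It was found within 100 bp of the summit, on either strand, in 4 of the 11 WT-specific regions and in 1 of the 9 IRF8KO-specific regions. Each line gives 60 bases of GRCm38 on the strand of the match, with the element in capitals. The first 4 lines are from WT-specific regions and the last from an IRF8KO-specific one.
Maf window, chr8:115644108-115644167, plus strand: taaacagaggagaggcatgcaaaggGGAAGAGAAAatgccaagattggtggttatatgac
Mef2a window, chr7:67216650-67216709, minus strand: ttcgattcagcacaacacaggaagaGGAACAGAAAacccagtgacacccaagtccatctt
Mef2a intron, chr7:67243648-67243707, plus strand: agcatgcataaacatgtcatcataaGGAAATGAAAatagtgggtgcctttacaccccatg
Mef2c intron, chr13:83604859-83604918, minus strand: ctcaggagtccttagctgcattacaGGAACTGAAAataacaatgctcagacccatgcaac
Mef2a intron, chr7:67286699-67286758, minus strand: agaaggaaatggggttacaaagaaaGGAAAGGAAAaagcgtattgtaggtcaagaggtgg

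AP-1 sites, which the FOS, JUN and BATF families bind, were searched as TGACTCA on both strands. They were found in 2 of the 9 IRF8KO-specific regions and in 1 of the 11 WT-specific regions. In the following 57 bases of the plus strand the site is in capitals, and all 3 read TGAGTCA, the same site on the opposite strand. The first and second are IRF8KO-specific, the last is WT-specific.
Mef2a upstream flank, chr7:67384312-67384368: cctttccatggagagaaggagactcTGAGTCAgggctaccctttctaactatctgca
Mef2c intron, chr13:83588321-83588377: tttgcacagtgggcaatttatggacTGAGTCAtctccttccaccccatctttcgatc
Mef2c intron, chr13:83652041-83652097: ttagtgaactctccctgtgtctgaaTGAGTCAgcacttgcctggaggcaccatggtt

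Within Mef2c, an IRF8KO-specific and a WT-specific region lay 377 bp apart, and both are given whole on the plus strand because of this neighbourhood. Neither summit window held the ETS-IRF element or the AP-1 site. Capitals mark a PU.1 motif (GAGGAAGT), found only in the WT-specific region of this pair.
IRF8KO-specific, chr13:83574318-83574489: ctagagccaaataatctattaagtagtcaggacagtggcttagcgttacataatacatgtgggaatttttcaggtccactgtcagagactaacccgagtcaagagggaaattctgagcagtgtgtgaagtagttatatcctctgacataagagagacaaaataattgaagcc
WT-specific, chr13:83574867-83574994: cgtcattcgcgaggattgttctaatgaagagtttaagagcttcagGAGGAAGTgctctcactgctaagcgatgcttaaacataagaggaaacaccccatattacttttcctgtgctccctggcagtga

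The libraries held between 46948938 and 48896408 tags in WT and between 66224648 and 78793572 in IRF8KO. Depth and tag size both followed genotype and cannot be told apart from it. The lowest pileup in a list was 0.123 to 0.128 PPM in WT and 0.102 to 0.106 in IRF8KO, and weaker sites were in no list. The level needed for a strict peak differed by place. A Mafg region (chr11:120629442-120629640) at 0.39 PPM in IRF8KO replicate 1 had a −log10 q of 0.41. A Maf region (chr8:115644055-115644237) at 0.21 PPM in WT replicate 1 had 3.20. A missing peak therefore does not show a level near these lowest values. Libraries of one genotype resembled each other, with a Pearson correlation of log2 pileup across regions (regions are not independent replicates) of 0.957 for WT and 0.952 for IRF8KO, compared with 0.811 to 0.815 between genotypes. At the Irf8 promoter every library had a strict peak, which says nothing about the deleted part of the gene. Promoters of microglial markers such as Tmem119 and Cx3cr1 carried peaks, in both libraries for 8 of 8 markers in WT and for 7 of 8 in IRF8KO, Sall1 being the exception. Their summed level, not centred, was 18.0 to 25.3 PPM in WT and 9.95 to 16.6 in IRF8KO. By the limma test described with the promoters, P2ry12 fell by 1.24 and Cx3cr1 by 0.48 on the log2 scale (adjusted p = 1.28e-06 and 0.0411), and Tmem119 had no call.

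Promoter accessibility of the MAF and MEF2 genes was compared first, taking for each gene the region within 1 kb of an annotated transcription start site (TSS) that was strongest by the mean of the 4 libraries. Mef2c, Mef2a and Mef2d had the strongest promoters and Maf, Mafk and Mafg the weakest, and none of these 6 regions passed the test between genotypes. At Mafg another promoter region, at internal TSSs, was stronger in both IRF8KO libraries and did pass, and it is described with that gene. The test was limma on log2 PPM, each library centred on its median, fitted to the 58550 regions of the genome with a peak in all 4 libraries and a strict one in at least 1. P-values were adjusted by Benjamini-Hochberg over all of them, with a threshold of 0.05. Values are given in the order WT replicate 1, WT replicate 2, IRF8KO replicate 1, IRF8KO replicate 2, here and below.

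The Mef2c promoter region (chr13:83571985-83572733) reached 8.99, 6.56, 5.70 and 8.41 PPM. The highest value was in WT and the lowest in IRF8KO, but the groups overlapped in PPM: the WT mean was 7.78 ± 1.71 and the IRF8KO mean 7.05 ± 1.92 (SD, n = 2 each). It covers TSSs at 83572348 and 83572381, well inside the annotated gene, whereas no strict region lay within 1 kb of the 3 most upstream TSSs at 83504034, 83504206 and 83504240. Relative to the library medians the values were 11.7, 10.7, 12.8 and 12.1, no longer overlapping. In limma the Mef2c promoter differed by 0.15 ± 0.14 (log2 IRF8KO minus WT, ± SE, adjusted p = 0.485). The Mef2a promoter (chr7:67372719-67373810) reached 8.16, 6.75, 4.63 and 5.95 PPM, both WT libraries above both IRF8KO libraries. Relative to the library medians the values were 10.6, 11, 10.4 and 8.57, still apart, and the difference was −0.19 ± 0.15 (limma adjusted p = 0.378). The Mef2d promoter (chr3:88142080-88142858) stood at 5.92, 4.25, 3.16 and 4.06, a difference of −0.18 ± 0.16 (limma adjusted p = 0.469). Here too both IRF8KO values lay below both WT values in PPM, but relative to the library medians (7.72, 6.93, 7.11 and 5.85) they overlapped.

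Among the MAF genes, the Maf promoter (chr8:115707521-115708281) reached 3.47, 2.58, 2.28 and 3.58 PPM, with overlapping groups. Relative to the library medians its values were 4.53, 4.2, 5.14 and 5.15, which did not overlap, and the difference was 0.24 ± 0.18 (limma adjusted p = 0.359). Mafk (chr5:139791110-139792138) stood at 3.17, 2.15, 1.75 and 1.96, all 4 libraries below their values for Maf. Relative to the library medians it had 4.14, 3.5, 3.94 and 2.83, which overlapped, and the difference was −0.19 ± 0.19 (limma adjusted p = 0.544). At Mafg the strongest promoter region (chr11:120632544-120632784), 0.77 kb inside the gene, reached 2.32, 2.02, 1.52 and 1.83 PPM. Its values relative to the library medians (3.03, 3.3, 3.43 and 2.63) overlapped, and it differed by −0.07 ± 0.20 (limma adjusted p = 0.845). The order Mef2c, Mef2a, Mef2d, Maf, Mafk, Mafg was the same in 3 of the 4 libraries, WT replicate 2 having Mef2a above Mef2c. With the Mafg region at the internal TSSs instead (2.06 and 2.67 in IRF8KO), Mafg stood above Mafk in both IRF8KO libraries. Neighbours in that order overlapped in at least 1 genotype, except Mef2a and Mef2d, which were apart in both. Without centring, the median region of the genome was lower in IRF8KO by 0.31 on the log2 scale, and the Maf and Mef2c differences then turned to −0.07 and −0.15, still under the threshold.

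**Figure D1:**
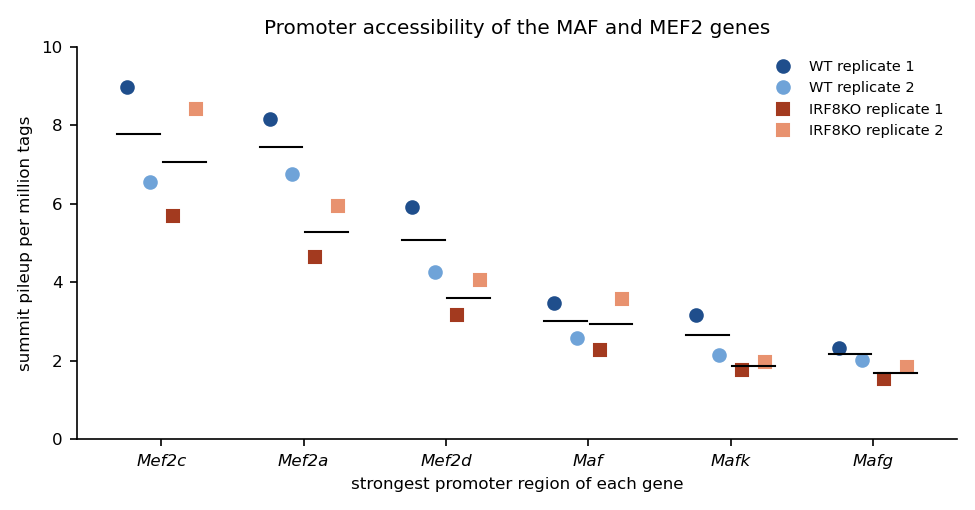
Summit pileup in PPM (per 1000000 tags) (vertical axis, linear from 0) of the strongest promoter region of each gene. Points are the 4 libraries and lines the mean of each genotype (n = 2). Mef2c spans 5.70 to 8.99 and Mafg 1.52 to 2.32, and IRF8KO replicate 2 lies among the WT points for Mef2c and above both for Maf.

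The remaining regions were then compared in the same fit. Of the 185 regions, 85 had a peak in all 4 libraries and could be fitted, 27 had a peak in 3, 41 in 2 and 32 in 1. Pileup was higher in IRF8KO at 5 of the 85 (5.88%), where 13.3% of all fitted regions of the genome were higher. It was lower at 8 (9.41%), where 12.5% of all fitted regions were lower. The other 72 did not pass, with differences from −0.75 to 0.76 and a median SE of 0.286. The median difference was −0.07 over the 85 regions and −0.00 over all fitted regions.

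Within 1 kb of any TSS, 1 of 33 fitted regions of the windows was higher and 1 was lower, and farther away 4 of 52 were higher (7.69%) and 7 lower (13.5%). In the whole genome these shares were 7.56% higher and 8.35% lower near a TSS, and 16.4% and 14.6% farther away. The shares in the windows were below those of the genome at both positions, a difference that was not tested. The split of the calls depended on centring. Genome-wide, 51.7% of called regions were higher in IRF8KO with centring and 29.1% without it, and in the windows 5 higher and 8 lower became 1 and 6.

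**Figure D2:**
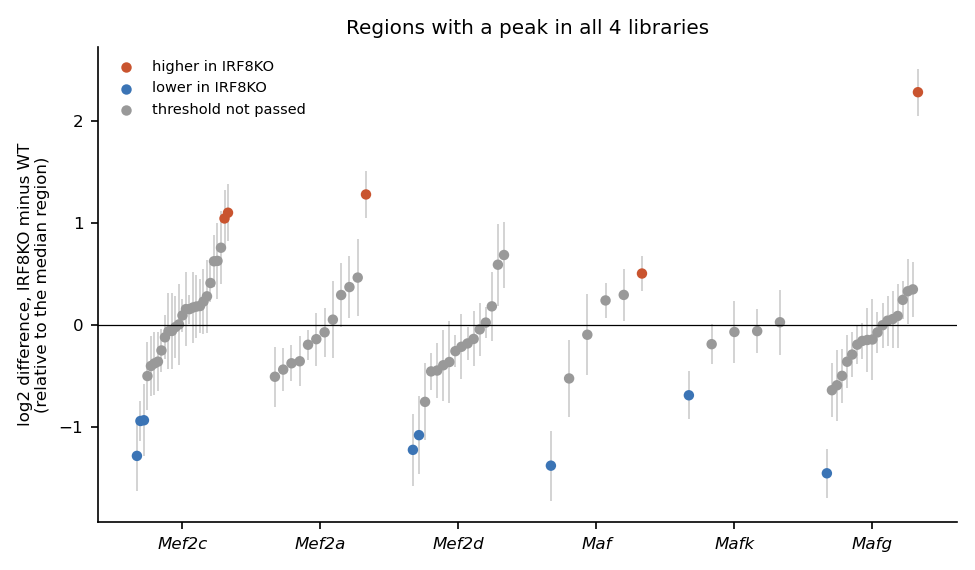
Log2 difference in PPM, IRF8KO minus WT, relative to the median region (vertical axis), for the 85 regions with a peak in all 4 libraries, ordered by value within each gene window. Bars are the SE, and colours mark the 5 regions higher and the 8 lower in IRF8KO. The Mafg region at 2.28 stands above the others, and most points lie within 1 log2 unit of 0.

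At Maf, an isolated gene whose window holds no other protein-coding gene, 14 regions were found, 3 of them strict in all libraries. The strongest by mean was not the promoter but an intergenic region 56.4 kb downstream of the nearest Maf TSS (chr8:115650055-115650720), at 3.45, 2.78, 3.03 and 4.17 PPM. These values overlapped between genotypes. Relative to the library medians they were 4.50, 4.53, 6.83 and 6.00 and no longer overlapped, and the region rose by 0.50 ± 0.17 (limma adjusted p = 0.0199). Without centring the rise was 0.20 (limma adjusted p = 0.833), and it also missed the threshold with fold enrichment in place of pileup, without the variance trend, and without either WT replicate.

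Farther downstream (chr8:115635296-115635717) a weaker region stood at 0.62, 0.63, 0.14 and 0.27 PPM. Both WT libraries were above both IRF8KO libraries, and the region fell by 1.38 ± 0.34 on the log2 scale (limma adjusted p = 0.00116, or 0.0657 without WT replicate 1). The WT-specific Maf region with the ETS-IRF element (chr8:115644055-115644237) lies between these, with 0.21 and 0.18 in WT replicates 1 and 2.

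Mafg lies in a gene-dense stretch, with 11 protein-coding genes overlapping its window, and 27 regions were found there. The largest difference of all 85 fitted regions was in Mafg itself, in an untranslated exon (chr11:120630492-120630894) that covers internal TSSs at 120630636 and 120630797. It stood at 0.72 and 0.49 PPM in WT and at 2.06 and 2.67 in IRF8KO. Every IRF8KO value was more than any WT value, and the region rose 4.86-fold relative to the library medians (log2 2.28 ± 0.23, limma adjusted p = 6.51e-13). In IRF8KO replicates 1 and 2 it was above the gene's strongest promoter region, and in WT below it. An IRF8KO-specific region (chr11:120631240-120631384), at 0.48 and 0.68 in IRF8KO replicates 1 and 2, lay 345 bp from it toward the gene start. It was in a Mafg exon and held the MAF motif TGCTGA. The rise passed the threshold in each of the 8 alternatives in which it was fitted, with differences from 1.98 to 2.45.

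In the same window a region fell at the promoter of Arhgdia (chr11:120581455-120582308). Its pileup was 2.51 and 1.86 PPM in WT and 0.66 and 0.62 in IRF8KO. The groups were apart, with a fall of 1.45 ± 0.24 on the log2 scale (limma adjusted p = 9.29e-07, or 0.0899 without WT replicate 1). The strongest regions of this window were the promoter of Pycr1 (chr11:120643648-120643943), with 3.66, 2.99, 2.18 and 2.64, and that of Alyref and Anapc11 (chr11:120597907-120598884), with 3.17, 2.68, 2.88 and 2.72. Pycr1 stood above Alyref and Anapc11 in both WT libraries and below them in both IRF8KO libraries, and neither region had a call between genotypes.

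The Mafk window held 18 regions, of which 5 could be fitted. An intergenic region (chr5:139830735-139831015) 33.2 kb from the nearest Mafk TSS and 3.85 kb from Psmg3, a proteasome assembly gene, stood at 1.64, 1.49, 0.58 and 1.06 PPM and held the PU.1 motif. Both IRF8KO values lay below both WT values, and it fell by 0.69 ± 0.24 on the log2 scale (limma adjusted p = 0.0211). The fall lost the threshold in 6 alternatives, with adjusted p up to 0.21. The WT-specific Mafk region was in an intron 2.62 kb from the nearest TSS (chr5:139794154-139794295), at 0.53 and 0.41 in WT, and lay 114 bp from an intron region present in all 4 libraries.

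Mef2c had the most regions, 60 in a window of 263.0 kb with no other protein-coding gene. Its second strongest region was an intron region (chr13:83608974-83609838) 15.8 kb from the nearest TSS, at 5.81, 3.84, 3.08 and 5.41 PPM, without a call and with MAF and PU.1 motifs. Of the 27 fitted regions, 2 were higher and 3 lower in IRF8KO, all in introns.

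The strongest of the lower Mef2c regions (chr13:83649627-83650242), in the 3′ part of the gene, stood at 3.64, 2.54, 0.91 and 1.80 PPM. The WT values were above the IRF8KO values, and it fell by 0.94 ± 0.20 on the log2 scale (limma adjusted p = 0.00011). As fold enrichment over the local background the difference was −0.07 (limma adjusted p = 0.906), and without WT replicate 1 the adjusted p was 0.112. A lower region nearer the gene start (chr13:83539931-83540534) stood at 1.0, 0.45, 0.16 and 0.30, a fall of 1.28 ± 0.34 (limma adjusted p = 0.00233, or 0.217 without WT replicate 1). The fifth call in Mef2c (chr13:83592133-83592353), outside the naming rule and named to complete the count, had 0.66, 0.41, 0.14 and 0.35 and a fall of 0.93 ± 0.35 (limma adjusted p = 0.039), which missed the threshold in 5 alternatives.

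The regions that rose in Mef2c lay between its upstream TSSs and its strongest promoter. The first (chr13:83545782-83546239) stood at 0.49, 0.55, 0.65 and 1.16 PPM and the second (chr13:83566281-83566778), which held the MAF motif, at 0.68, 0.39, 0.69 and 1.16. In both, IRF8KO replicate 2 was highest and IRF8KO replicate 1 only slightly above the nearest WT value. The rises were 1.04 ± 0.28 and 1.10 ± 0.28 relative to the library medians (limma adjusted p = 0.00292 and 0.00156). Without centring the adjusted p was 0.457 and 0.409, and without WT replicate 1 it was 0.179 and 0.0546. The second was also lost without WT replicate 2 (0.0679).

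Genotype-specific regions of Mef2c included the strongest of both classes. The WT-specific region with the ETS-IRF element GGAACTGAAA (chr13:83604799-83605020) stood at 1.85 and 1.10 PPM in WT replicates 1 and 2 and had no deposited peak in IRF8KO. A region without a call lay 210 bp from it. The WT-specific region with the PU.1 motif (chr13:83574867-83574994) stood at 1.15 and 0.78, and its IRF8KO-specific neighbour 377 bp upstream (chr13:83574318-83574489) at 0.74 and 1.36 in IRF8KO replicates 1 and 2. In this stretch of intron, then, each genotype had a deposited peak in both of its libraries where the other had none. Both regions lay within 1 kb of an annotated internal Mef2c TSS at 83575145.

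The remaining WT-specific Mef2c regions had 0.81 and 0.51 at chr13:83652016-83652207, which holds AP-1 and MAF motifs, 0.64 and 0.57 at chr13:83584210-83584392, and 0.28 and 0.27 at chr13:83531005-83531116. The first of these lay 1.77 kb from the strongest lower region. IRF8KO-specific regions had 0.63 and 0.68 at chr13:83588235-83588549, the region with an AP-1 site. A weaker one at chr13:83597475-83597709 had 0.22 and 0.26. The last, 44.9 kb upstream of the gene (chr13:83458903-83459130), had 0.16 and 0.17.

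Mef2a had 37 regions, and the only 1 past the threshold lay in an intron 129 kb from the annotated gene start, where the neighbouring gene Lysmd4 is annotated too. This region (chr7:67243897-67244332) stood at 1.06, 0.72, 1.37 and 2.14 PPM. Both IRF8KO values were above both WT values, and it rose 2.42-fold relative to the library medians (log2 1.28 ± 0.23, limma adjusted p = 5.58e-06). Without centring the rise was 0.97 (limma adjusted p = 0.198). Only 62 bp away lay the WT-specific region with the ETS-IRF element GGAAATGAAA (chr7:67243660-67243834), at 0.51 and 0.37 in WT. A further WT-specific region (chr7:67241850-67241966), with 0.49 and 0.35 and a MAF motif, lay 89 bp from a region shared by all libraries. That neighbour, at 2.56, 1.98, 0.88 and 2.07, had no call. Of the regions 62 bp apart, the fitted one rose in IRF8KO and the WT-specific one had no deposited peak there. The WT-specific one had no IRF8KO value, so no direction of its pileup was measured.

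Elsewhere in the Mef2a window, WT-specific regions had 0.34 and 0.25 at chr7:67320455-67320644 in an intron, and 0.26 and 0.20 at chr7:67216574-67216818, where the ETS-IRF element lies in an intron of the non-coding gene 1700112J16Rik. IRF8KO-specific regions had 0.29 and 0.33 at chr7:67286581-67286885, where the ETS-IRF element GGAAAGGAAA sits in a purine-rich stretch, and 0.19 and 0.23 at chr7:67384295-67384456, 11.4 kb upstream of the gene. Another had 0.16 and 0.21 over a coding exon (chr7:67234849-67235104). Strict regions were absent within 1 kb of 5 of the 7 annotated Mef2a TSSs, all of them internal.

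Mef2d had 29 regions, none WT-specific. Its window's strongest region was the promoter of the non-coding gene 1700113A16Rik (chr3:88177486-88178374), 9.23 kb from the nearest Mef2d TSS, at 7.22, 5.67, 4.89 and 5.66 PPM, with no call. A Mef2d intron region (chr3:88156589-88156963) stood at 0.62, 0.49, 0.13 and 0.29, both WT values above both IRF8KO values. It fell by 1.22 ± 0.35 on the log2 scale (limma adjusted p = 0.00509), a call lost without WT replicate 1 (0.141) or IRF8KO replicate 1 (0.0897). A weak region downstream (chr3:88192328-88192496), at 0.34, 0.31, 0.10 and 0.15, fell by 1.08 ± 0.38 (limma adjusted p = 0.0276). That call was lost when any library was left out, and with fold enrichment (limma adjusted p = 0.119). The IRF8KO-specific region of the window (chr3:88107539-88107709), at 0.32 and 0.50, lay over a coding exon of Iqgap3, a gene for a cytoskeletal scaffold protein, and held CEBP and PU.1 motifs.

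**Figure D3:**
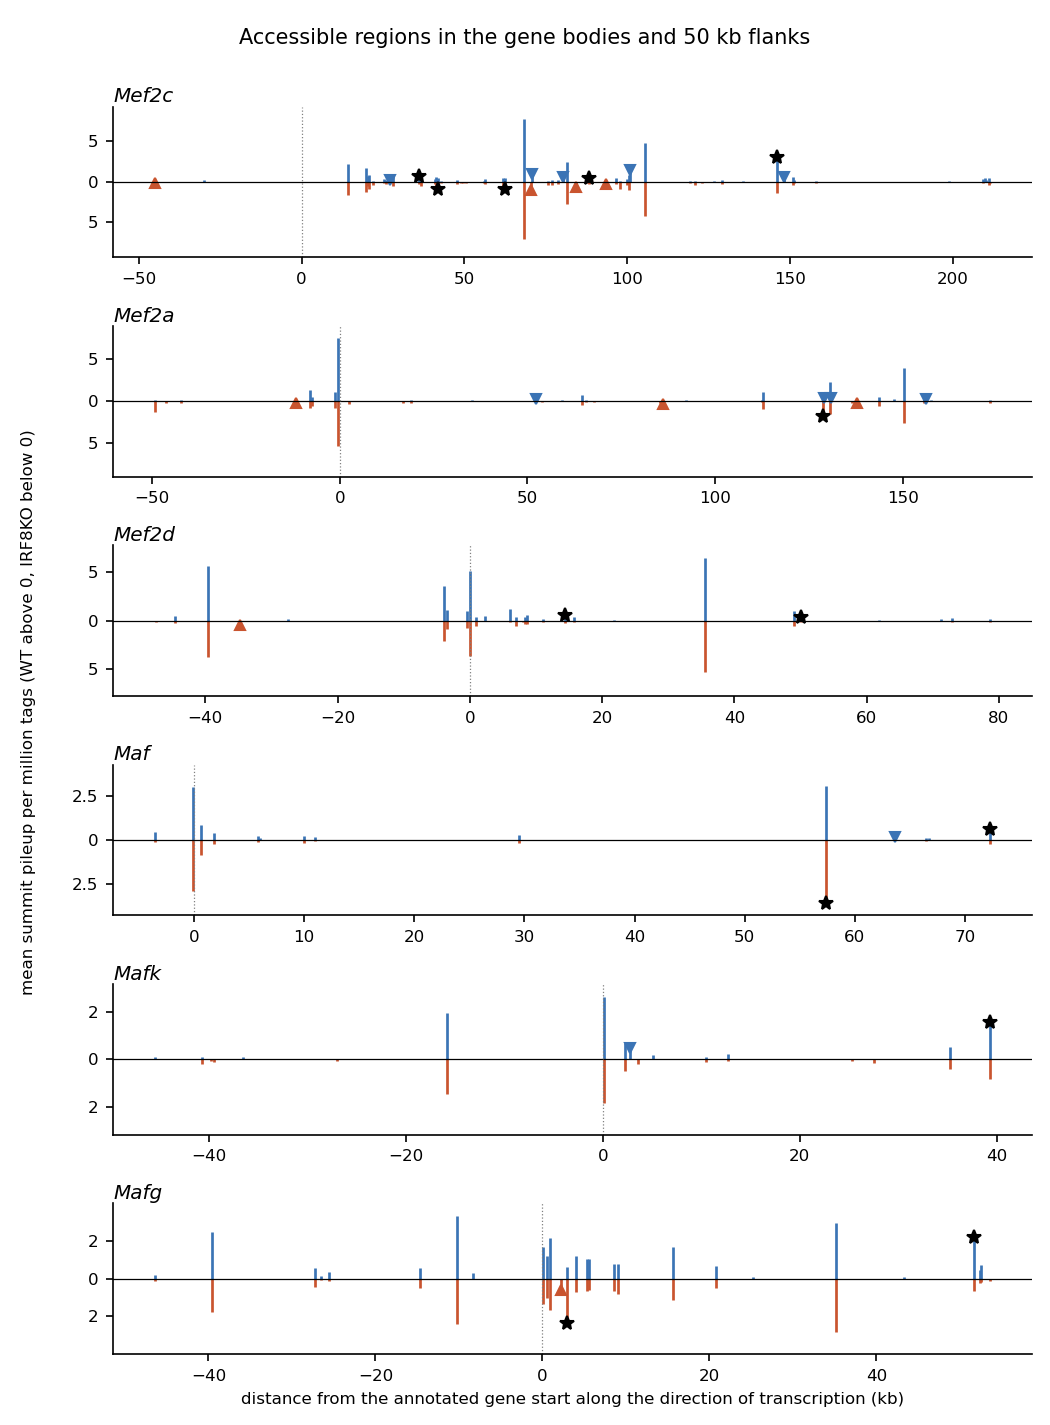
Mean summit pileup in PPM of each of the 185 regions (WT above 0, IRF8KO below 0) against distance in kb from the annotated gene start along the direction of transcription. Blue triangles are WT-specific, red triangles IRF8KO-specific, and stars the 13 regions past the limma threshold, placed on the side of the higher genotype. Mef2c shows its strongest region inside the gene, and the Maf promoter is matched in height by a region 57 kb downstream.

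None of the 13 regions past the threshold changed sign in any alternative. Leaving out WT replicate 1 ended 11 of the 13 calls, keeping those at the internal Mafg TSSs and in the Mef2a intron. Some promoters of border macrophage markers, listed to check for macrophages of the meninges and vessels, moved with genotype. Pf4 rose by 2.33 ± 0.27 and Mrc1 by 1.67 ± 0.31 on the log2 scale (limma adjusted p = 3.74e-11 and 1.23e-05), and F13a1 had no call (−0.01 ± 0.41). The list's summed level was 0.916 to 0.920 PPM in WT and 2.53 to 4.30 in IRF8KO, with peaks in both libraries for 3 of 5 markers in WT and 4 of 5 in IRF8KO. Cd163 had none in WT and 0.52 and 1.10 PPM in IRF8KO, and Lyve1 had none in any library. Of monocyte and neutrophil markers, Ly6c2, Ccr2, Ly6g and Elane had no promoter peak in any library, and the summed level of all 6 was 0.614 to 1.19 PPM in WT and 0.178 to 0.453 in IRF8KO. Lists for neurons, astrocytes, oligodendrocytes, endothelial cells and B and T cells summed to at most 2.04 PPM in any library, the oligodendrocyte list being highest (1.47 to 2.04 in WT and 0.495 to 1.15 in IRF8KO). In bulk cells, fewer cells of a type and less accessibility per cell cannot be told apart, and the part of these markers and of depth in the MAF and MEF2 differences was not tested.

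**Figure D4:**
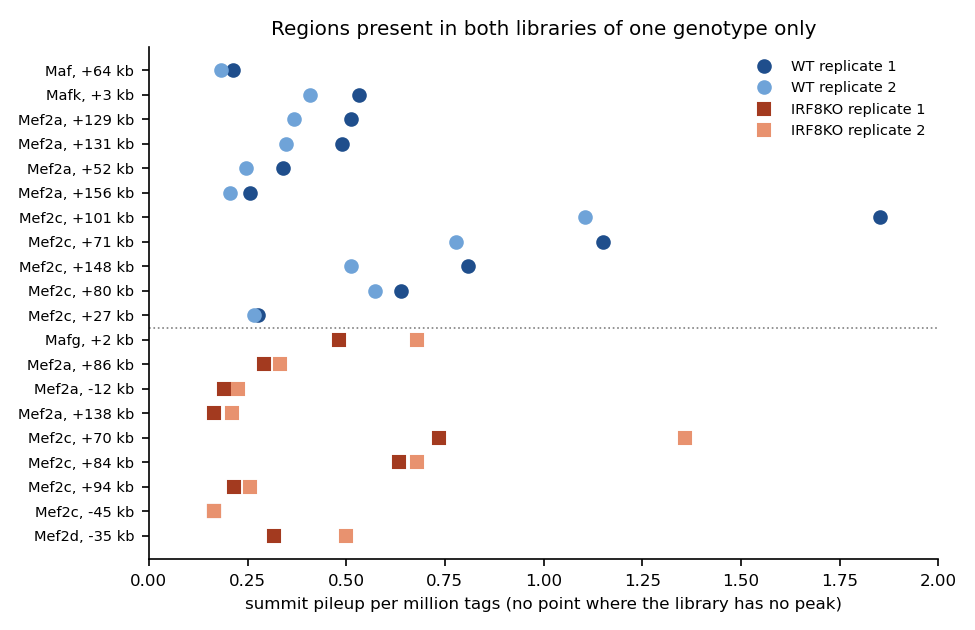
Summit pileup in PPM (per 1000000 tags) (horizontal axis, linear from 0) of the 11 WT-specific regions (circles) and the 9 IRF8KO-specific regions (squares), named by gene and distance from the annotated gene start. The dotted line divides the classes, and no point is drawn where a library had no peak. The Mef2c region at +101 kb reaches 1.85 and 1.10, and 5 of the 9 IRF8KO-specific regions stay under 0.35.

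The genotype-specific regions were weak as a class. WT-specific regions ranged from 0.18 to 1.85 PPM and IRF8KO-specific regions from 0.16 to 1.36. At a −log10 q of 5 or more, 3 of the 11 and 3 of the 9 kept their class. When peaks under 0.192 PPM were counted as no peak in every library, 10 of the 11 and 6 of the 9 kept it. Exons or introns of the gene itself held 9 of the 11 and 6 of the 9. Within 1 kb of a TSS lay 3 WT-specific regions, all at TSSs of Mef2c itself. The IRF8KO-specific regions so placed were also 3, with 2 at TSSs of the gene itself and the one over the Iqgap3 exon. Each class thus made up 5.45% of the 55 regions near a TSS, where the genome had 3.26% WT-specific and 2.62% IRF8KO-specific. That difference was not tested. A neighbouring region lay within 500 bp of 6 WT-specific and 2 IRF8KO-specific regions, the Mef2c pair counting in each class.

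Motif content was compared with all regions of the same class in the genome, as a description. The ETS-IRF element was in 36.4% of the 11 WT-specific regions and in 18.7% of 8673 WT-specific regions of the genome. Among IRF8KO-specific regions it was in 11.1% of 9, against 1.82% of 6005, a share that rests on 1 region. None of the 5 higher and 8 lower regions held it, where it was in 2.57% of higher and 12.5% of lower regions of the genome. AP-1 was in 22.2% of the 9 IRF8KO-specific regions and 15.3% of such regions of the genome. Among WT-specific regions it was in 9.09% of 11, against 4.29% of such regions of the genome. These shares rest on 2 and 1 regions. PU.1 and ETS-IRF motifs can overlap, since both contain GGAA, and the AP-1 and MAF motifs can overlap too.

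Over all 185 regions, the MAF motif TGCTGA was in 41 (22.2%, against 18.5% of all regions). The MEF2 motif, CTA and TAG on either side of any 4 bases, was in 4 (2.16%, against 3.35%), and the CEBP motif TTGCNNAA in 28 (15.1%, against 9.57%). Of the 70 regions strict in all 4 libraries, 16 held the CEBP motif (22.9%, against 9.49% of 48262), among them the Mef2c and Maf promoter regions. The RUNX motif TGTGGT was in 22 of 185 (11.9%, against 16.9%) and the ISRE, an interferon response element of the form GAAA, any 2 bases and GAAA, in 3 (1.62%, against 3.12%).

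Summed over its window, the PPM was largest at Mef2c, with 45.6, 35.2, 24.7 and 43.3, and smallest at Mafk, with 10.2, 7.14, 5.71 and 6.72. A region without a peak in a library added nothing to that library's sum, so ratios of sums are not fold changes in accessibility. For Mafg, Mafk and Mef2d both IRF8KO sums were below both WT sums, at 0.790, 0.718 and 0.707 of the WT mean (two-sided exact permutation p = 0.333 each, the smallest that 2 against 2 allows). With a 10 kb flank the Mafg difference shrank from −5.70 to −0.921 PPM and the genotypes overlapped (exact permutation p = 0.667). Relative to the library medians both sums stayed below WT only for Mef2d, at 0.875 of WT (exact permutation p = 0.333). Maf and Mef2c then stood at 1.05 and 1.01 of WT, with exact permutation p of 0.667 and 1.

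The related genes were described from lists of 17 in all. Of the 14 whose promoter region could be fitted, 1 was higher in IRF8KO and none lower, where 7.56% and 8.35% of all fitted regions within 1 kb of a TSS were. This was Nfe2, which encodes a partner of small MAF proteins, at 2.22, 2.15, 4.05 and 4.64 PPM. Both IRF8KO values were above both WT values, a rise of 1.29 ± 0.18 relative to the library medians (limma adjusted p = 1.3e-08). With fold enrichment in place of pileup the log2 difference was 0.60 (limma adjusted p = 0.0434). The threshold was missed without centring (adjusted p = 0.112) and without WT replicate 1 (0.0656).

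In the windows of the 6 partners of small MAF proteins, 14 of 98 fitted regions were higher (14.3%, against 13.3% of all fitted regions) and 12 lower (12.2%, against 12.5%). WT-specific regions made up 7.61% of the 197 regions of this list and IRF8KO-specific regions 4.57%, where the genome had 5.58% and 3.86%. Bach2, which encodes a repressor that pairs with small MAFs, held 13 WT-specific regions and 1 IRF8KO-specific region of 86. Nfe2l2, which encodes an oxidative stress factor, held no WT-specific and 7 IRF8KO-specific regions of 28, and the difference between these genes was not tested. Bach1 held 1 of each and Nfe2l1 held 1 WT-specific region. In the windows of the 6 deacetylases and kinases that act on MEF2, 18 of 86 fitted regions were higher (20.9%, against 13.3% of all fitted regions) and 16 lower (18.6%, against 12.5%), without a test of the list. WT-specific regions made up 4.43% of the 203 regions of this list and IRF8KO-specific regions 8.37%, where the genome had 5.58% and 3.86%. Hdac9 held 8 WT-specific and 5 IRF8KO-specific regions of 76, and of its 32 fitted regions 7 were higher and 11 lower. Hdac4 held 1 and 4 of 39, Mapk14 none and 4 of 25, Hdac5 none and 2 of 21, Hdac7 none and 1 of 33, and Mapk7 none and 1 of 9. The 5 other MAF and MEF2 genes had 2 higher (4.35%) and 5 lower (10.9%) of 46 fitted regions, with 3 WT-specific regions and 1 IRF8KO-specific region at Mafa, and 1 WT-specific region at Mef2b.

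Promoters of other genes whose 4 values were nearest to those of each gene were found by the Euclidean distance of log2 PPM over the 4 libraries, among 13091 protein-coding genes. Nearest to Mef2c were Colgalt1 (distance 0.0784) and Akirin2 (0.0788), and to Mef2a Wbp1 (0.0914) and Ift57 (0.139). For Mef2d they were Zfp213 (0.111) and Dapp1 (0.120). Nearest to Maf were Slf1 and 2210408I21Rik (0.0778), which share 1 region, to Mafk Ndufs7 (0.112) and Mthfs (0.150), and to Mafg March8 (0.0776) and Tmed10 (0.0864). Between 15 and 57 genes lay within a distance of 0.2 of each, so these are the nearest of many.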

How the data were processed

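ATAC-seq of sorted microglia was deposited by the authors as 1 peak list per library, 2 WT and 2 IRF8KO, grouped by the genotype label. Per the submitters' processing notes, the tools were bcl2fastq, Bowtie2, MACS2 2.1.1.20160309 and deepTools, and the build was mm10. Per the file headers, MACS2 called peaks in each library with no control sample and a p cutoff of 0.01, with cut sites shifted by 37 bp, extended to 73 bp and a background of 10 kb, which centres them as Tn5 data need. The deposited pileup is a signal of whole numbers not scaled for depth. Fold enrichment, as deposited, is a ratio to the local background, and the deposited p and q are −log10 values. The file headers say that q was not calculated, yet the column held values that rose with p. Peak scores are the authors' own. A threshold on q moves with depth, and the IRF8KO libraries were deeper. All peaks lay within the GRCm38 chromosome lengths.

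Pileup was scaled to 1000000 header tags, which assumes that it scales with them. limma 3.58.1 (R 4.3.3; lmFit, eBayes with trend, checked on simulated data) was fitted to all regions with a peak in all 4 libraries, and absent peaks were not imputed. Sums were compared by exact permutation tests. Motifs were searched within 100 bp of the strongest summit with pysam 0.24.0, and sequences are of the GRCm38 reference. Named were the promoter, the strongest region, the genotype-specific regions and the 4 largest called differences of each window, and related genes with a genotype-specific region or a called promoter. The genes, lists and rules were chosen with earlier results of these data known. Replicate numbers do not pair the libraries in the labels. Some items of the lists are not reported here.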

Additional observations from a re-analysis of the deposited data

How the results depend on the processing

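The limits are 2 libraries a genotype and a depth and tag size that follow genotype. Raising the −log10 q to 5 left 3 regions in each genotype-specific class, all deposited peaks together gave 16 WT-specific and 24 IRF8KO-specific regions, and equal pileup gave 16 and 6, so the balance of the classes moved with the setting. When a replicate was left out, WT-specific regions numbered 14 to 25 (25 without WT replicate 1, 19 without WT replicate 2 and 19 without IRF8KO replicate 2) and IRF8KO-specific regions 12 to 25 (25 without IRF8KO replicate 1 and 15 without IRF8KO replicate 2), since fewer libraries had to meet the definition. The share of each class over the whole genome is not given for these settings. These shifts in class counts therefore cannot be read as particular to the windows. Higher regions fell to 1 without centring, where 2.81% of all fitted regions were higher, and leaving out a replicate gave 2 (without WT replicate 1, 4.38%) to 7 (without IRF8KO replicate 1, 11.1%). Lower regions numbered 5 with fold enrichment (7.81% of all fitted regions were lower), 4 among regions strict in all libraries (12.1%) and 4 with a 10 kb flank (12.5%), where fewer regions were tested, and 0 to 10 without a replicate. The 0 came without WT replicate 1, where limma called 2.79% of all regions lower, and 5 remained without WT replicate 2.

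Promoter differences, none past the threshold, changed sign for Maf (−0.0650) and Mef2c (−0.15) without centring and for Mafk (0.0531) and Mef2d (0.0277) as fold enrichment. Without a replicate they ran from −0.211 to 0.157 for Mafg and from −0.375 to 0.0911 for Mafk, and without IRF8KO replicate 2 they shrank to −0.013 for Mef2a and −0.00045 for Mef2d. Mef2c stood at 0.0762 without WT replicate 2. Summed differences turned to 0.700 for Maf and 0.530 for Mef2c when divided by the library median. Without a replicate they ran from −2.88 to 0.449 for Maf, −8.99 to 0.435 for Mef2a, −15.5 to 2.81 for Mef2c, −8.73 to −3.14 for Mafg, −3.97 to −1.18 for Mafk and −12.4 to −5.04 for Mef2d. The cause was not tested where none is named.

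A fit with the replicate number as a block gave 5 higher and 8 lower regions and changed no call. Deviations of same-numbered libraries from their group means correlated at 0.00438, so the numbers were not treated as pairs.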
